A study of Mus musculus with 2 samples.

Results

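The antioxidant and thiol redox genes of pancreatic beta cells are described here from RNA sequencing of sorted mutant cells. A total of 45 genes was chosen by symbol from the 55487 genes in each deposited table, and all 45 were found once in both tables. They cover the superoxide dismutases, catalase, the glutathione peroxidases, the peroxiredoxins, the thioredoxin and glutathione systems, the Nrf2 pathway, glutathione transferases and methionine sulfoxide reductases.

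Beta cells make and secrete insulin within the islets of the pancreas, and the study set out to find genes that depend on the Myt transcription factors in these cells at normal blood glucose. The 2 libraries form 1 group, and both came from mutant mice aged 2 months, with males and females pooled. The genotype is MytF/F, Myt2F/F, Myt3F/F with RipCre, that is, loxP-flanked alleles of Myt family genes and a Cre recombinase driven by the rat insulin promoter, so that deletion is directed to insulin-producing cells. Islet cells were dissociated with trypsin and purified by fluorescence-activated cell sorting. The labels call library 2 a duplicate and do not say whether other mice were used, so the spread between the libraries may be technical. Control cells were not analysed here, so no value compares mutant with control cells, and an effect of the mutation or of the dissociation on any level cannot be told apart.

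Library 1 held 50121771 counted reads and library 2 held 39003197. Defining genes of beta cells were abundant, with 8 of 8 markers at 1 CPM or more in both libraries (CPM, a gene's reads scaled to the library total). Hormone genes of other islet cells were present too: Sst had 1515 and 1100 CPM, Ppy had 632 and 879 CPM, and Gcg had 462 and 330 CPM. The part that other islet cells had in the levels below was not tested. Markers of acinar cells, the enzyme-secreting cells around the islet, summed to 137 CPM over 14 genes in library 1 and 635 CPM in library 2, and 13 of them were called at least 2-fold lower in library 1 by the test described further on. Ptf1a, the acinar transcription factor, had 0 and 3 reads. Immune markers summed to 53.0 and 44.5 CPM over 7 genes, of which 2 reached 1 CPM in both libraries. C1qa, known from macrophages, gave 39.1 and 35.3 CPM, and Cd74 gave 10.8 and 7.28 CPM. Other macrophage markers were low: Cd68 had 1.16 and 0.846 CPM, Csf1r had 0.818 and 0.410 CPM, and Adgre1 had 9 and 6 reads. Ptprc, which defines leukocytes, had 0.878 and 0.487 CPM. Erythroid markers summed to 1.34 and 2.67 CPM over 6 genes. In bulk RNA, fewer cells of a type and less RNA per cell cannot be told apart.

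Cells convert superoxide, a by-product of respiration, into hydrogen peroxide with superoxide dismutases, and then remove the peroxide with catalase, glutathione peroxidases or peroxiredoxins. Glutathione peroxidases draw their electrons from glutathione and most peroxiredoxins draw theirs from thioredoxin, and both carriers are recharged by reductases that use NADPH. Rodent beta cells are known for low catalase and low cellular glutathione peroxidase activity compared with liver, and Nrf2, held in check by Keap1, is the main transcription factor that induces genes of these systems.

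The glutathione peroxidases fall into enzymes with selenocysteine at the active site and enzymes with cysteine there. Selenocysteine is written into the messenger RNA as an in-frame TGA, which elsewhere is a stop codon. The runs below are coding sequence from the GENCODE M21 transcripts (GRCm38), and they are shown because Gpx7 and Gpx8, with cysteine, were the lowest of the 6 glutathione peroxidases among the 45 genes. Capitals mark the TGA that the annotation gives as selenocysteine in Gpx1 to Gpx4, and the codon aligned with it in Gpx7 and Gpx8.
Gpx3: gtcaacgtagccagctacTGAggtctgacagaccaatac
Gpx1: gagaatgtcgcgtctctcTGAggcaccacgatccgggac
Gpx4: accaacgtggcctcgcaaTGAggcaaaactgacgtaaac
Gpx2: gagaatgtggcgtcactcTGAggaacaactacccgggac
Gpx7: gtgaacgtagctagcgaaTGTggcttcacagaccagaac
Gpx8: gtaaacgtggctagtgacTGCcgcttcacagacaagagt
The marked codon lies at chr11:54907256-54907258 on the plus strand in Gpx3, chr9:108339451-108339453 on the plus strand in Gpx1, and chr10:80054737-80054739 on the plus strand in Gpx4. It lies at chr12:76795256-76795258 on the minus strand in Gpx2, chr4:108403430-108403432 on the minus strand in Gpx7, and chr13:113045661-113045663 on the minus strand in Gpx8. The aligned codons TGT and TGC both encode cysteine.

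In total, 7 of the 45 genes carry an annotated selenocysteine. Besides the 4 glutathione peroxidases these are both thioredoxin reductases, where only a glycine codon stands between the TGA and the stop, and the methionine sulfoxide reductase Msrb1. The ends of the reductases' coding sequences and the run of Msrb1 are shown for comparison, with the TGA in capitals.
Txnrd1: atcctccagtctggctgcTGAggttaa
Txnrd2: cctactgtgactggttgcTGAggctaa
Msrb1: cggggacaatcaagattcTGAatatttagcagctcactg
The capitals mark chr10:82896037-82896039 in Txnrd1, chr16:18477772-18477774 in Txnrd2 and chr17:24740158-24740160 in Msrb1, all on the plus strand. The 7 selenoprotein genes together took 52.3% of the summed TPM of the 45 genes in library 1 and 55.5% in library 2 (TPM, the deposited level scaled by gene length and library). Their median was 63.1 TPM, against 29.2 TPM for the other 38 genes, and most of their sum was Gpx3.

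Of the 45 genes, 43 reached 1 CPM in both libraries, where 55.3% of 21974 protein-coding genes did. Their levels spanned more than 4 orders of magnitude, and the genes were otherwise mostly of moderate level: 7 averaged 100 TPM or more, 29 lay between 10 and 100 TPM, and 9 lay under 10 TPM. The median over all 45 was 33.4 TPM, against 14.1 TPM over the 13955 genes whose CPM averaged 1 or above and 16.2 TPM over the 12349 protein-coding genes among these. A total of 35 of the 45 lay above the median of the 13955 genes. The members were picked as known redox genes of most cells, so this position describes them and is not a test. Gpx3 and Txnip alone took 71.8% of the genes' summed TPM in library 1 and 68.1% in library 2. In the order of mean levels, 16 of the 44 neighbouring pairs differed beyond the spread between the libraries (the same order in both, and a mean log2 ratio above its SD), and 28 did not. The order was taken from these same values and the SD from 2 libraries, so these counts describe the order and are not a test.

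**Figure D1:**
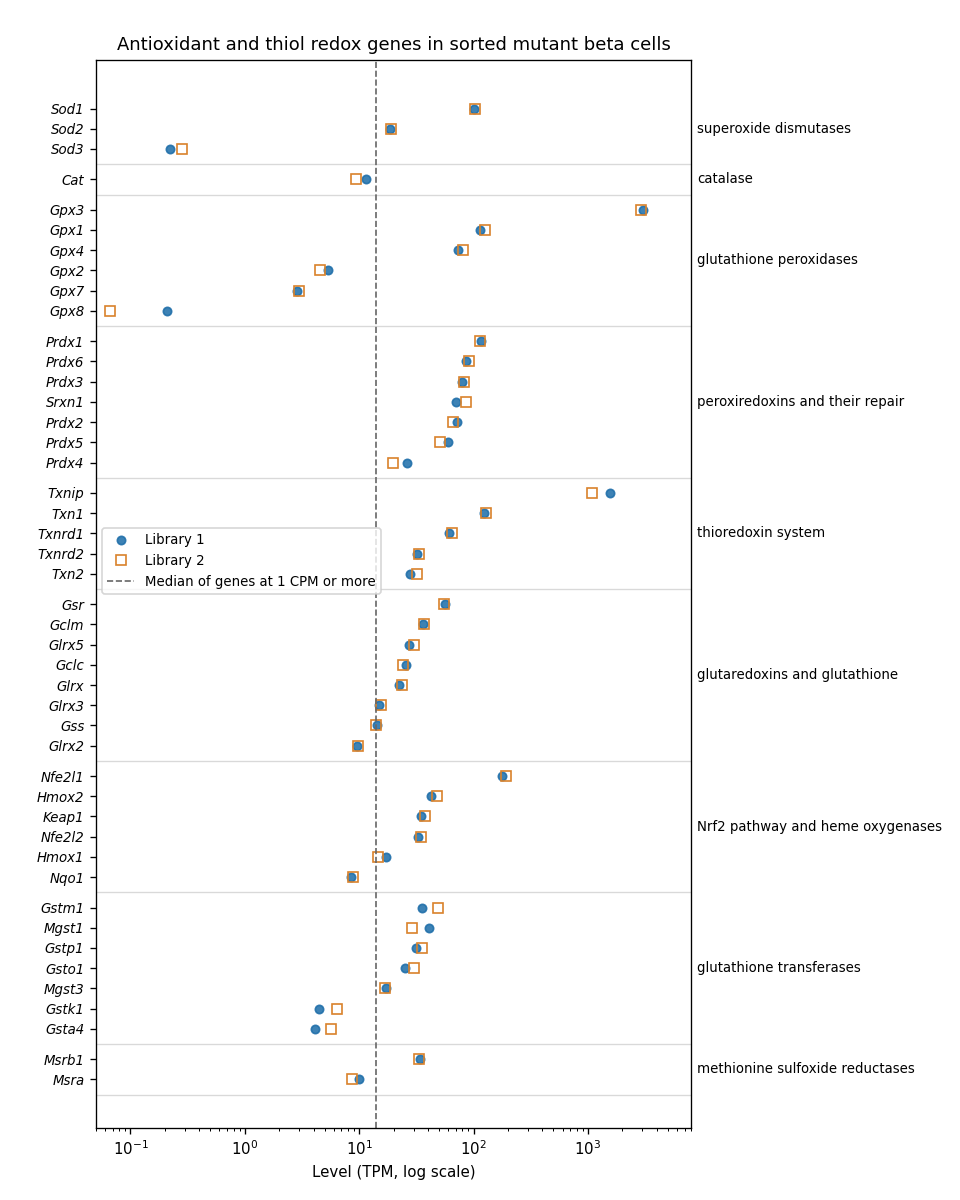
Level of each of the 45 genes in TPM (log scale) in library 1 (filled circles) and library 2 (open squares), grouped by role. The dashed line is the median of genes whose CPM averaged 1 or above, 14.1 TPM; Gpx3 and Txnip stand far to the right of the rest, and Sod3 and Gpx8 far to the left.

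Among the superoxide dismutases, the cytosolic enzyme was the most abundant and the secreted one was nearly absent. Sod1, the copper-zinc enzyme of the cytosol, had 101 TPM in library 1 and 103 TPM in library 2, a mean of 102 ± 1.59 TPM (SD, n = 2). Sod2, the manganese enzyme of mitochondria, had 18.6 and 18.9 TPM, a mean of 18.7 ± 0.174 TPM (SD, n = 2). The libraries hardly differed in either gene. Sod2 over Sod1 was 0.185 in library 1 (95% interval 0.178 to 0.193) and 0.184 in library 2 (0.175 to 0.192), so Sod1 was 5.43-fold higher per length. The Sod2 count is uncertain, since 21.0% of its 50-base words are found in transcripts of other genes too. Sod3, the extracellular enzyme, had 15 reads in each library, or 0.299 CPM (0.168 to 0.494) in library 1 and 0.385 CPM (0.215 to 0.634) in library 2. All intervals are exact at 95% and cover counting error only, since the reads carry no molecular identifiers and can repeat a molecule.

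Catalase was low. Cat, the peroxisomal enzyme that splits hydrogen peroxide without a cofactor from the thiol systems, had 11.4 TPM in library 1 and 9.40 TPM in library 2, a mean of 10.4 ± 1.43 TPM (SD, n = 2), at place 36 of the 45 genes. Its ratio to Gpx1 was 0.101 in library 1 (0.0916 to 0.110) and 0.0744 in library 2 (0.0664 to 0.0832), so Gpx1, the cytosolic and mitochondrial glutathione peroxidase, was 11.6-fold higher per length.

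The glutathione peroxidases held both the most and the least abundant of the 45 genes. Gpx3, the secreted peroxidase known from blood plasma, had 3023 TPM in library 1 and 2919 TPM in library 2, a mean of 2971 ± 73.2 TPM (SD, n = 2), and ranked 18 among all 55487 genes. Its reads numbered 99702 and 75810, or 1989 and 1944 CPM. The gene (ENSMUSG00000018339) spans positions 54902453 to 54910377 of chromosome 11 (GRCm38, plus strand), has 7 merged exons, and shares no exon bases or 50-base words with another annotated gene.

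Gpx1 had 114 and 126 TPM, a mean of 120 ± 9.08 TPM, and Gpx4, which reduces lipid peroxides in membranes, had 72.4 and 80.1 TPM, a mean of 76.3 ± 5.47 TPM (SD, n = 2). Gpx4 shares 34.7% of its 50-base words with pseudogene copies and is uncertain. Gpx1 exceeded Gpx4 1.57-fold (1.48 to 1.66) in library 1 and 1.58-fold (1.49 to 1.67) in library 2. Gpx3 exceeded Gpx4 41.7-fold (40.1 to 43.5) in library 1 and 36.4-fold (34.8 to 38.1) in library 2. Gpx2, known as the peroxidase of the gut epithelium, had 5.39 and 4.57 TPM.

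Gpx7 and Gpx8, the enzymes of the endoplasmic reticulum, were the lowest of these 6 genes. Gpx7 had 2.86 and 2.98 TPM, from 67 and 55 reads. Gpx8 had 4 reads in library 1 and 1 read in library 2, or 0.0798 CPM (0.0217 to 0.204) and 0.0256 CPM (0.000649 to 0.143). These counts lie close to the limit that a count of 0 allows, which is 3 reads, or 0.0599 CPM in library 1 and 0.0769 CPM in library 2. The ratio of Gpx8 to Gpx7 was 0.0734 (0.0194 to 0.197) in library 1 and 0.0224 (0.000556 to 0.13) in library 2.

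The peroxiredoxins were closer to one another in level than the glutathione peroxidases. Prdx1, an abundant cytosolic peroxiredoxin, had 117 TPM in library 1 and 114 TPM in library 2, a mean of 116 ± 1.85 TPM (SD, n = 2). Prdx6, which uses glutathione rather than thioredoxin, had 86.0 and 90.4 TPM, and the mitochondrial Prdx3 had 79.0 and 83.3 TPM. Prdx2 had 71.6 and 66.6 TPM, and Prdx1 exceeded it 1.63-fold (1.57 to 1.70) in library 1 and 1.72-fold (1.64 to 1.80) in library 2. The count of Prdx2 is uncertain, with 11.5% of its exon bases overlapped by antisense genes and a similar share of its words found in other genes. Prdx5, found in mitochondria, peroxisomes and cytosol, had 59.2 and 50.5 TPM, and its ratio to Prdx3 was 0.75 (0.706 to 0.795) in library 1 and 0.606 (0.566 to 0.649) in library 2. On CPM this pair no longer differed beyond its spread (mean log2 ratio −0.04), and 19.1% of the exon bases of Prdx5 are overlapped by the antisense gene Trmt112, which had 12.8 and 12.5 CPM.

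Prdx4, the peroxiredoxin of the endoplasmic reticulum, was the lowest of the 6, with 25.9 TPM in library 1 and 19.8 TPM in library 2, a mean of 22.8 ± 4.37 TPM (SD, n = 2). It was nevertheless 124-fold higher than Gpx8 in library 1 (48.1 to 455) and 297-fold higher in library 2 (53.0 to 11730), wide intervals that follow from the few reads of Gpx8. Srxn1, the sulfiredoxin that reactivates overoxidised peroxiredoxins, had 69.7 and 86.0 TPM, a mean of 77.9 ± 11.5 TPM (SD, n = 2), within the range of the peroxiredoxins it serves.

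Set side by side, the 13 enzymes that remove peroxide were dominated by Gpx3. The 6 glutathione peroxidases took 87.7% of their summed TPM in library 1 and 87.8% in library 2, a mean of 87.8% ± 0.0712 (SD, n = 2). The 6 peroxiredoxins took 11.96% and 11.91%, and catalase took 0.311% and 0.264%. With the secreted Gpx3 left out, the order of the classes turned: the peroxiredoxins took 68.1% in library 1 and 65.5% in library 2, the 5 remaining glutathione peroxidases 30.2% and 33.0%, and catalase 1.77% and 1.45%.

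In the thioredoxin system the inhibitor stood far above the carrier it binds. Txnip, a glucose-induced arrestin-like protein that binds thioredoxin, had 1565 TPM in library 1 and 1083 TPM in library 2, a mean of 1324 ± 341 TPM (SD, n = 2), and ranked 35 among all genes. Txn1, the cytosolic thioredoxin, had 124 and 130 TPM, a mean of 127 ± 3.80 TPM (SD, n = 2). Txnip over Txn1 was 12.6 in library 1 (12.1 to 13.1) and 8.34 in library 2 (7.98 to 8.73). Txnip (ENSMUSG00000038393) spans positions 96557957 to 96561883 of chromosome 3 (plus strand). Of its exon bases, 19.4% are overlapped by the antisense gene Gm15441, at 2.89 and 1.61 CPM, while Txnip itself was at 1774 and 1242 CPM.

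The mitochondrial counterparts were lower than the cytosolic genes. Txn2, the mitochondrial thioredoxin, had 27.8 and 31.9 TPM, and its ratio to Txn1 was 0.224 (0.211 to 0.237) in library 1 and 0.246 (0.231 to 0.262) in library 2. This difference rests on length scaling, since per read the pair did not differ beyond its spread (mean log2 ratio −0.09). Txnrd1, the cytosolic reductase that recharges thioredoxin, had 61.1 and 65.1 TPM, and Txnrd2, its mitochondrial relative, had 32.0 and 33.1 TPM. Txnrd2 over Txnrd1 was 0.523 (0.5 to 0.547) in library 1 and 0.509 (0.485 to 0.535) in library 2.

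The genes that make and recycle glutathione lay close together, between 14.1 and 56.3 TPM in either library. Gsr, the glutathione reductase, had 56.3 and 55.1 TPM, a little below Txnrd1, with a ratio of 0.921 (0.882 to 0.962) in library 1 and 0.847 (0.806 to 0.889) in library 2. This closeness rests on length scaling, since on CPM the mean ratio was 0.343. Gclm, the modifier subunit of the enzyme that limits glutathione synthesis, had 36.0 and 37.2 TPM, and Gclc, its catalytic subunit, had 25.7 and 24.1 TPM. Gclm over Gclc was 1.40 (1.32 to 1.48) in library 1 and 1.55 (1.45 to 1.65) in library 2. Gss, which completes glutathione, had 14.2 and 14.1 TPM, and 15.4% of its exon bases are overlapped by antisense genes.

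The glutaredoxins, which reduce mixed disulfides with glutathione, were of similar level. Glrx5, the mitochondrial glutaredoxin of iron-sulfur cluster transfer, had 27.3 and 30.0 TPM. Glrx had 22.3 and 23.6 TPM, and Glrx3 had 14.8 and 15.6 TPM, a ratio of Glrx3 over Glrx of 0.666 (0.622 to 0.713) in library 1 and 0.66 (0.612 to 0.711) in library 2. Glrx3 shares 15.1% of its 50-base words with other genes and is uncertain. Glrx2 was the lowest of the 4 in TPM, with 9.62 and 9.81 TPM. This place rests on length scaling: on CPM Glrx3 was lowest, with 27.0 and 28.7 CPM, and Glrx2 had 30.6 and 31.6 CPM.

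Among the genes of the Nrf2 pathway, the related factor Nfe2l1 was the most abundant. Nfe2l1, known for the control of proteasome genes, had 179 TPM in library 1 and 192 TPM in library 2, a mean of 185 ± 9.41 TPM (SD, n = 2), the third highest of the 45 genes. Nfe2l2, which encodes Nrf2, had 32.7 and 35.0 TPM. The ratio of Nfe2l1 to Nfe2l2 was 5.47 (5.23 to 5.71) in library 1 and 5.48 (5.23 to 5.75) in library 2. Keap1, the adaptor that targets Nrf2 for degradation, had 34.5 and 38.0 TPM, so the ratio of Nfe2l2 to Keap1 was close to 1, at 0.946 (0.895 to 0.999) in library 1 and 0.921 (0.868 to 0.978) in library 2. The closeness to 1 rests in part on length scaling, since on CPM the mean ratio of Nfe2l2 to Keap1 was 0.755. Keap1 shares 10.9% of its exon bases with the antisense gene Gm16754, which had 1.18 and 1.0 CPM.

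Of the heme oxygenases, which degrade heme to biliverdin, the constitutive form exceeded the inducible one. Hmox2 had 42.4 TPM in library 1 and 47.8 TPM in library 2, and Hmox1, an Nrf2 target, had 17.2 and 14.5 TPM. Hmox2 over Hmox1 was 2.47 (2.24 to 2.72) and 3.29 (2.93 to 3.70). The count of Hmox2 is uncertain, because 40.2% of its exon bases are overlapped by the antisense gene Cdip1, which had 71.98 and 75.58 CPM, while Hmox2 had 34.1 and 38.9 CPM. Hmox1 is also known from macrophages, and the part that macrophage RNA had in its level was not tested. Nqo1, a quinone reductase and a widely used readout of Nrf2, was low, with 8.57 and 8.86 TPM from 242 and 197 reads.

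Glutathione transferases join glutathione to other molecules, and the 7 here ranged from 4.08 to 48.7 TPM in either library. Gstm1 had 35.3 TPM in library 1 and 48.7 TPM in library 2, and shares 18.9% of its 50-base words with 5 other genes. Mgst1, a microsomal transferase counted among the genes that are kept low in beta cells, had 40.5 and 29.1 TPM. Mgst3, another microsomal transferase, had 17.0 and 16.8 TPM. Mgst3 over Mgst1 was 0.42 (0.373 to 0.473) in library 1 and 0.578 (0.502 to 0.665) in library 2. Gstp1 had 31.2 and 35.6 TPM, with 33.7% of its words shared with 2 genes, Gstp2 foremost, and Gsto1 had 25.2 and 30.0 TPM. Gstk1, a transferase of mitochondria and peroxisomes, and Gsta4, which detoxifies products of lipid peroxidation, were lowest, with 4.42 and 6.42 TPM and with 4.08 and 5.68 TPM.

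The methionine sulfoxide reductases repair oxidised methionine. Msrb1, the selenoprotein, had 34.3 TPM in library 1 and 33.0 TPM in library 2, and Msra had 9.89 and 8.61 TPM. Msrb1 over Msra was 3.46 (3.13 to 3.83) in library 1 and 3.83 (3.40 to 4.32) in library 2. Per read the pair did not differ beyond its spread (mean log2 ratio 0.09). In all, both genes of each of the 19 pairs differed beyond counting error and the spread between the libraries on the length-scaled values, and 16 of the 19 did so on CPM. On CPM, which is not scaled by gene length, the mean ratio moved by over 1.5 times in 10 of the 19 pairs, and in 0 pairs did it cross to the other side of 1. It was 0.465 for Sod2 over Sod1, 0.157 for Cat over Gpx1, 385 for Prdx4 over Gpx8, and 30.4 for Txnip over Txn1. It was 0.321 for Txnrd2 over Txnrd1, 2.46 for Gclm over Gclc, and 0.269 for Mgst3 over Mgst1. The remaining 3 such pairs are Gsr with Txnrd1, Txn2 with Txn1, and Msrb1 with Msra, given above.

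**Figure D2:**
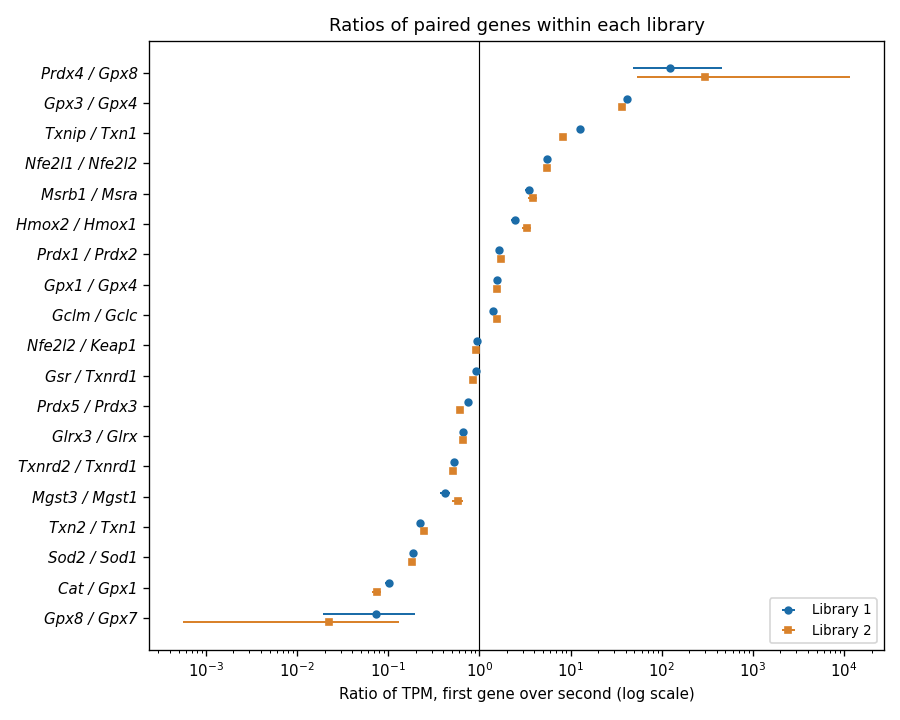
Ratio of TPM of the first gene over the second for 19 pairs (log scale), in library 1 (circles) and library 2 (squares), with exact 95% intervals for counting error; the line is a ratio of 1. Most intervals are narrower than the symbols, and only the pairs with Gpx8 have wide ones.

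Genes around these systems were read from 6 further lists. All 10 genes of NADPH supply reached 1 CPM in both libraries, and their median was 27.8 TPM. The highest was Idh2, the mitochondrial isocitrate dehydrogenase, with 106 TPM in library 1 and 127 TPM in library 2. The lowest was Nnt, the mitochondrial transhydrogenase, with 0.969 and 1.24 TPM from 124 and 125 reads. The pentose phosphate enzymes lay between, with G6pdx at a mean of 31.4 ± 1.57 TPM and Pgd at 29.4 ± 0.866 TPM (SD, n = 2).

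The genes listed for selenium supply and selenocysteine insertion were present throughout. All 8 of them reached 1 CPM in both libraries, and their median was 30.8 TPM. The highest was Scly, at 90.4 and 96.9 TPM, which releases selenium from selenocysteine and is not itself an insertion factor. Pstk, the kinase that acts on the transfer RNA, was lowest at 1.90 and 2.09 TPM. The 12 genes of a chosen list of other selenoproteins, which was not meant to be complete, reached 1 CPM as well, and their median was 157 TPM. Selenop, the secreted selenium carrier, led them with 838 TPM in library 1 and 697 TPM in library 2, and Txnrd3 was lowest with 4.98 and 4.14 TPM.

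Of 14 genes known as sources of superoxide or peroxide, 5 reached 1 CPM in both libraries, and the median over all 14 was 0.426 TPM. The highest was Ero1b, the oxidase that forms disulfides during protein folding in the endoplasmic reticulum and yields peroxide, at 1182 TPM in library 1 and 1348 TPM in library 2, a mean of 1265 ± 117 TPM (SD, n = 2). The other abundant ones were Qsox1, a secretory pathway sulfhydryl oxidase, with 75.5 and 66.0 TPM, Pcyox1, a prenylcysteine oxidase, with 64.8 and 57.1 TPM, and Ero1a, with 34.8 and 37.3 TPM. The NADPH oxidase genes were at or near the limit of counting: Nox1 had 9 and 7 reads, Nox4 had 9 and 10, and Cybb, the phagocyte oxidase, had 28 and 12. Duox2, a dual oxidase, was lowest with 1 and 2 reads.

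All 16 partners and other known targets of Nrf2 reached 1 CPM, and their median was 33.0 TPM. The ferritin genes led, with Ftl1 at 341 and 361 TPM and Fth1 at a mean of 309 ± 7.44 TPM (SD, n = 2), and Aox1 was lowest at 2.08 and 1.76 TPM. Of 6 metallothionein and sestrin genes, 5 reached 1 CPM, and the median over the 6 was 46.6 TPM. Mt1, a zinc-binding thiol protein, had 383 and 337 TPM, and Mt3 was lowest at 1.80 and 2.95 TPM.

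**Figure D3:**
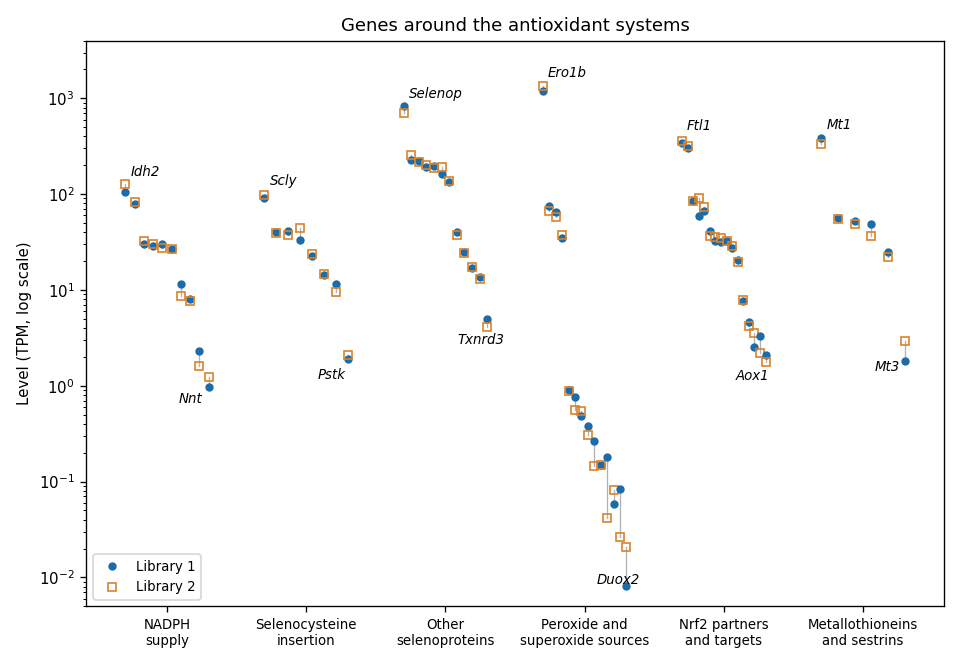
Level in TPM (log scale) of each gene of 6 lists around the antioxidant systems, in library 1 (filled circles) and library 2 (open squares), ordered by mean level within a list, with the highest and lowest gene named. Ero1b, with a mean of 1265 TPM, stands above the other sources, of which most lie under 1 TPM.

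Between the libraries the 44 genes tested differed by less than 2-fold. Each gene's reads were set against the library totals in an exact binomial test (two-sided), with Benjamini-Hochberg adjustment over all 20681 genes that had at least 10 reads in sum, and a gene was called at an adjusted p under 0.05 and a CPM ratio of 2-fold or more. This compares the reads of these libraries, not conditions. Its p-values cover counting error only and do not measure how far repeated libraries would vary. None of the 44 genes tested was called, where 4.31% of the 20681 genes were, and none was under TMM scaling (edgeR) or median-of-ratios scaling (DESeq2) either. Gpx8, with 5 reads in all, was not tested. At an unadjusted p under 0.05, 27 of the 44 differed by any size, where 39.8% of all genes tested did. A counting test finds smaller differences in genes with more reads. The shares over all genes tested, here and below, are not matched to the 44 genes for read number. With adjustment, 7 were higher in library 1, where 19.0% of all genes tested were, and 15 were lower in it, where 13.4% were. TMM scaling changed this split to 4 higher and 22 lower in library 1, where 14.4% and 17.4% of all genes tested were. Median-of-ratios scaling changed it to 4 higher and 20 lower, where 16.1% and 15.6% were. As log2 of library 1 over library 2, the median ratio was −0.07 for the 44 genes and 0.04 for all genes tested. Its median size without sign was 0.12 over the 44 genes and 0.14 over genes whose CPM averaged 1 or above.

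The ratios that were largest had a mixed pattern. Txnip was higher in library 1, with 1774 CPM against 1242 CPM in library 2, a ratio of 1.43. Mgst1 was higher too, with 29.6 CPM against 21.5 CPM, a ratio of 1.38 (adjusted p = 1.01e-12), and Prdx4 had 19.8 CPM against 15.3 CPM, a ratio of 1.30 (adjusted p = 3.45e-06).

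Lower in library 1 were Gstm1, with 18.9 CPM against 26.3 CPM, a ratio of 0.717 (adjusted p = 2.70e-12), and Gstk1, with 2.35 CPM against 3.46 CPM, a ratio of 0.681 (adjusted p = 0.00939). Srxn1 showed 71.3 CPM against 89.1 CPM in library 2, a ratio of 0.801 (adjusted p = 2.93e-19). Gsta4, with 1.88 CPM in library 1 against 2.64 CPM in library 2 and a ratio of 0.711, did not pass (adjusted p = 0.0537). Of the 44 genes, 35 lay within 1.2-fold and 9 beyond it, where 28.2% of the genes whose CPM averaged 1 or above lay beyond it. The summed marker lists are given for library 1 against library 2. The acinar list gave 137 CPM against 635 CPM, and the ductal list 61.3 against 70.3 CPM, with 4 of 5 genes detected. The 7 alpha cell markers gave 1401 against 1158 CPM (6 detected), the 5 delta cell markers 1660 against 1247 CPM (5 detected), and the 2 markers of pancreatic polypeptide cells 635 against 883 CPM (2 detected). The delta cell sum was mostly Sst, with 1515 against 1100 CPM, while Lepr went the other way, with 6.92 against 23.4 CPM, and was called. The endothelial list gave 28.6 against 21.4 CPM (5 of 7 detected, Pecam1 called higher in library 1), the mesenchymal list 13.3 against 9.05 CPM (4 of 6 detected, Col1a2 called higher in library 1), and the 8 beta cell markers 167200 against 170800 CPM. The part that any of these had in the ratios of the redox genes was not tested.

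**Figure D4:**
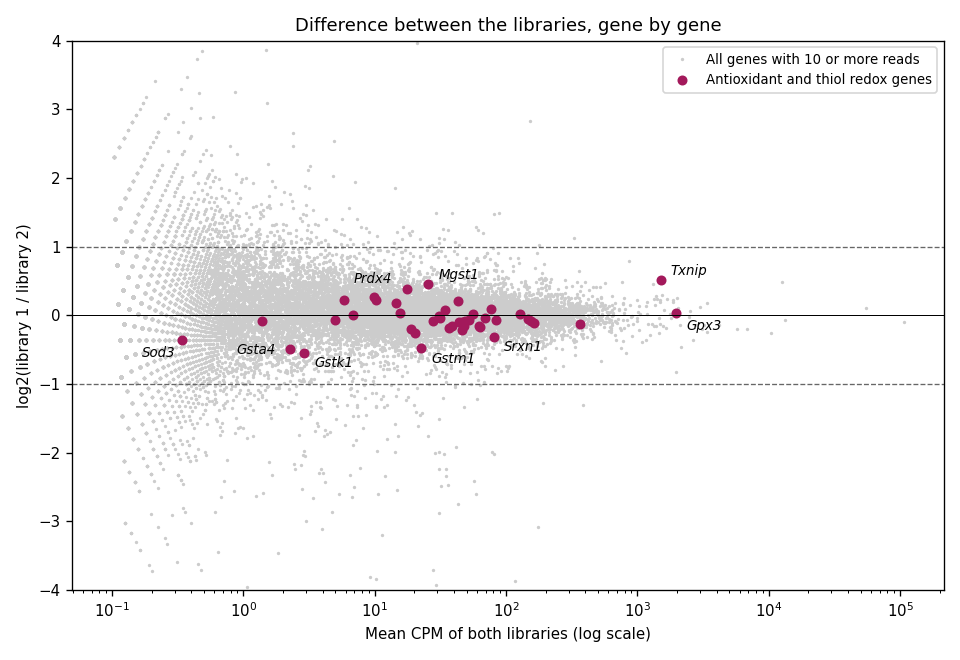
log2 ratio of library 1 over library 2 against mean CPM (log scale) for all genes that had at least 10 reads in sum (grey; 73 genes beyond a log2 ratio of 4 are not drawn) and for the 44 antioxidant and thiol redox genes tested (dark red). Dashed lines mark 2-fold; all 44 genes lie between them.

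The antioxidant response element, the DNA motif through which Nrf2 acts, was searched for by its core TGACNNNGC on both strands of the RefSeq promoter windows (GRCm38.p6, 250 bases before to 50 after the start site). Windows were found for 38 of the 45 genes, and 7 of these 38 genes, or 18.4%, held a match, against 14% of all 27025 genes with a window. Per window the shares were 12.7% and 12.4%. The share among the redox genes was thus near the background. The genes were Gclm, Mgst1, Nfe2l2, Prdx1, Sod1, Srxn1 and Txnrd1. The surroundings of 3 of the matches are shown for genes known as Nrf2 targets, with the match in capitals.
Prdx1: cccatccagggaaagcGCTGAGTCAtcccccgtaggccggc
Gclm: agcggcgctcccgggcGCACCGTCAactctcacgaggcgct
Txnrd1: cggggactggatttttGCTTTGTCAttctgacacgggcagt
These lie at chr4:116685450-116685490, chr3:122245407-122245447 and chr10:82859098-82859138, all on the plus strand with the motif on the opposite strand. Counted from the annotated start site, the match was centred at −129 in Prdx1, −130 in Gclm and −88 in Txnrd1. The 3 genes had means of 116, 36.6 and 63.1 TPM. A match is a description of the letters in a window and says nothing of binding.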

How the data were processed

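RNA from 2 libraries of sorted mutant beta cells, 1 group, was analysed. The deposited tables give raw counts per gene, CPM and TPM, per the file headers. Reads were handled with cutadapt 2.10, STAR 2.7.8a and featureCounts 2.0.2 on GRCm38.p6, per the submitters' processing notes. Their parameters, the strand setting and the treatment of reads with several matches were not given in the sources used here, so antisense overlaps and near-identical copies can shift a count. The deposited CPM equalled count over total (largest difference 1.8e-12), and the gene length implied by TPM was, after scaling to the median, within 1% of the merged GENCODE M21 exon length for all 45 genes.

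The members and all lists were chosen with earlier results of these data known. Full values were given for the 10 genes of highest mean TPM, genes under 1 CPM, genes called different between the libraries, and both genes of each of 19 pairs; those members remaining are given by value. Gsta4 was singled out after its values were seen. The older symbols Ero1l and Ero1lb of a list were matched to Ero1a and Ero1b through RefSeq synonyms. Ratios within a library have exact binomial intervals (95%). Library differences were tested as described, with 0.5 read added to each count for the ratio; edgeR's quasi-likelihood test needs a second group and was not run. Shared sequence means 50-base words, on either strand, found in transcripts of another gene. Detection was set at 1 CPM, and the pseudocount of log2 values was 1. Tools were Python 3.11.15, scipy 1.17.1, Biopython 1.88, R 4.3.3, edgeR 4.0.16 (TMM) and DESeq2 1.42.0 (size factors). Results for some listed genes are not reported here.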

Additional observations from a re-analysis of the deposited data

How the results depend on the processing

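The median level, 5.11 as log2(TPM + 1) against 3.92 over genes whose CPM averaged 1 or above, was 5.30 on CPM (against 4.53), 5.07 with a pseudocount of 0.1, and between 5.04 and 5.09 when either library was left out. It was 4.92 over the 34 genes with under 10% overlap and shared words, a setting chosen after seeing the data. Detection stayed at 43 genes at 0.5 CPM and in either library alone, and 39 reached 5 CPM. No member was called different between the libraries in any of the 4 alternatives, including a fold of 1.5, where the count over all genes was 1664 in place of 892. On CPM the shares of peroxide-removing transcripts were 81.5% for glutathione peroxidases, 18.1% for peroxiredoxins and 0.388% for catalase. The pairs Prdx5 and Prdx3, Txn2 and Txn1, and Msrb1 and Msra no longer differed beyond their spread on CPM, while the other 16 did. Under TMM scaling Gpx3, Gsr, Mgst3, Msrb1 and Prdx1 changed the sign of their small library ratio, to log2 values between −0.04 and −0.01; under median-of-ratios scaling Gsr, Mgst3 and Prdx1 did. At any size, TMM scaling added 7 members to those past an adjusted p of 0.05 and removed 3, and median-of-ratios scaling added 5 and removed 3. With 2 libraries the SD is imprecise. No paired analysis was possible because there is only 1 group.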

Other observations

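Relatives of the 45 genes, looked up after the values were seen, filled out the families. Of 27 protein-coding glutathione transferase genes in the tables, 17 were at 1 CPM or more in both libraries. The highest was Gstz1, a transferase of tyrosine breakdown, with 126 TPM in library 1 and 115 TPM in library 2, above all 7 transferases described in the results. Gstt1 followed with 56.5 and 62.9 TPM. Gsta1, Gsta2 and Gsta3, which are abundant in liver, had at most 7 reads in a library. Of 12 genes named for thioredoxin domains or likeness, 10 were detected, led by Txndc5, a disulfide isomerase of the endoplasmic reticulum, with 130 and 134 TPM. The remaining glutathione peroxidases were at the limit of counting, with 1 and 0 reads for Gpx5 and 0 in both libraries for Gpx6.

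The peroxide-forming oxidase Ero1b had 1182 TPM in library 1 and 1348 TPM in library 2, while Prdx4, Gpx7 and Gpx8, the peroxidases known to use peroxide in the same compartment, summed to 29.0 and 22.8 TPM. On TPM the ratio was 40.7 in library 1 and 59.1 in library 2. It would be larger on CPM, where Ero1b had 2854 and 3293 CPM, and Prdx4, the highest of the 3 peroxidases, 19.8 and 15.3 CPM. These are transcript levels, and protein amounts were not measured.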
